A study of Mus musculus with 53 samples.

Results

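The genes described here are 10 acute phase genes of the mouse liver: the serum amyloid A genes Saa1, Saa2, Saa3 and Saa4, the lipocalin gene Lcn2, the orosomucoid genes Orm1, Orm2 and Orm3, the haptoglobin gene Hp, and Apcs, which encodes serum amyloid P component. They were taken by symbol from tables of raw read counts, in which they are 10 of the 38293 genes counted in the diet and toxin experiments and 10 of the 53379 counted in the surgery experiment. All 10 passed the filter on low counts in each of the 3 experiments.

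The counts come from whole-liver messenger RNA of male C57BL/6J mice, with 53 libraries in 9 groups. In the diet experiment, 7 mice labelled Bmp8b knockout and 7 wild-type mice ate a Western diet, and 9 wild-type mice ate a low-fat control diet, for 32 weeks from the age of 9 weeks. In the toxin experiment, 6 labelled knockout and 4 wild-type mice aged 16 weeks received an intraperitoneal injection of carbon tetrachloride (CCl4, a toxin that hepatocytes activate) mixed with olive oil, 6 wild-type mice received olive oil alone, each at 2 µl per g of body weight, and all were culled 3 days later. In the surgery experiment, liver was taken from 4 labelled knockout and 5 wild-type mice aged 16 weeks at 3 days after partial hepatectomy, the surgical removal of part of the liver. The 5 baseline samples of that experiment are resected wild-type liver, called day 0. Day 0 and wild-type day 3 samples carry the same mouse numbers, 12 to 16, and the labels do not say whether they come from the same mice. There are no labelled knockout livers on low-fat diet, after olive oil or at day 0. The labels do not say how the knockout allele was made, nor that every wild-type mouse was a littermate.

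Acute phase genes encode plasma proteins whose synthesis in hepatocytes changes during inflammation and tissue injury. Interleukin 6 and related cytokines act through the receptor subunit gp130 and STAT3, interleukin 1 acts through NF-kB, and both pathways meet factors of the C/EBP family at the promoters of these genes. Saa1 and Saa2 encode the acute phase serum amyloid A proteins carried on high density lipoprotein, Saa3 is an inducible form made in several tissues of the mouse, and Saa4 encodes the constitutive form. Lcn2 encodes lipocalin 2, which binds bacterial siderophores and is made by neutrophils as well as by hepatocytes and other epithelia. The orosomucoids are alpha-1-acid glycoproteins, haptoglobin binds free haemoglobin, and serum amyloid P component is a pentraxin and a major acute phase protein of the mouse.

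The 4 Saa genes are neighbours on chromosome 7 (GRCm38): Saa3 at chr7:46711998-46715700, Saa4 at chr7:46727998-46732603 and Saa1 at chr7:46740497-46742980 on the minus strand, and Saa2 at chr7:46751790-46754313 on the plus strand. Orm1 (chr4:63344560-63348163), Orm3 (chr4:63356162-63359511) and Orm2 (chr4:63362449-63365878) lie side by side on the plus strand of chromosome 4. Lcn2 (chr2:32384633-32388252), Hp (chr8:109575128-109579172) and Apcs (chr1:172893961-172895041) stand alone, on the minus strand. Of the 50-base words in their annotated transcripts, 31.5% in Saa1 and 30% in Saa2 also occur in a transcript of another gene, most often of each other. The share was 22.7% in Orm2 and 20.4% in Orm1, and it was 3.59% in Orm3, 3.57% in Saa3, 0.979% in Saa4 and 0 in Lcn2, Hp and Apcs. How reads from shared stretches were assigned is not given in the sources used here, so the division of counts between Saa1 and Saa2, and among the orosomucoid genes, is uncertain.

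The promoters of 6 of these genes are shown because these genes include those whose levels changed most and because the paralogs can be compared base by base. Each line gives the 250 bases before the start of the gene in RefSeq (GRCm38.p6), 5′ to 3′ on the strand of the gene, with matches to 4 motifs in capitals. The windows are chr7:46742981-46743230 for Saa1, chr7:46751583-46751832 for Saa2, chr2:32387740-32387989 for Lcn2, chr4:63362199-63362448 for Orm2, chr4:63355908-63356157 for Orm3 and chr1:172895055-172895304 for Apcs. The gene spans given above are from another annotation, and some starts differ. The Lcn2 window lies wholly inside the Lcn2 span, and the end of the Saa2 window reaches into the Saa2 span.
Saa1: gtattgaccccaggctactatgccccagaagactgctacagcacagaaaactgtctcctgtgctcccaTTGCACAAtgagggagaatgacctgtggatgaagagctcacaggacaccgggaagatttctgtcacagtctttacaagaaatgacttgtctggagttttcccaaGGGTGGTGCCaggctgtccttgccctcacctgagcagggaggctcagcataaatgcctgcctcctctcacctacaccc
Saa2: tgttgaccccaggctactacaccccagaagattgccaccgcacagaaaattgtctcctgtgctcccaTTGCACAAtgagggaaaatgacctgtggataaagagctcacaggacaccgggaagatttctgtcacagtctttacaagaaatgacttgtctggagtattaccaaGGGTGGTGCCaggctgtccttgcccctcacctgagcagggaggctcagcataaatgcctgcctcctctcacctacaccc
Lcn2: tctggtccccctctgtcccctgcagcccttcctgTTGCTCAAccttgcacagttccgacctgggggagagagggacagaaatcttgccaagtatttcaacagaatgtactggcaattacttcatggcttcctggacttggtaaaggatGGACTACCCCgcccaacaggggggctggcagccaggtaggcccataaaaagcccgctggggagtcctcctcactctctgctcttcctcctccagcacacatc
Orm2: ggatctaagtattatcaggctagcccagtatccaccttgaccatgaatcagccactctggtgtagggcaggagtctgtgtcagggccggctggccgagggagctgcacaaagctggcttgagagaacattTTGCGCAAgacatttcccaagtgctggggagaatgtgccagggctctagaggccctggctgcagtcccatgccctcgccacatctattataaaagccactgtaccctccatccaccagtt
Orm3: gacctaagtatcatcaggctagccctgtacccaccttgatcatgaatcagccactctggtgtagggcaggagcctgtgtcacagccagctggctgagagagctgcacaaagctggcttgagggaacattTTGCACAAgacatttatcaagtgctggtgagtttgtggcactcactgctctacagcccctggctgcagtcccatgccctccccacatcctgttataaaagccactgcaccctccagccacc
Apcs: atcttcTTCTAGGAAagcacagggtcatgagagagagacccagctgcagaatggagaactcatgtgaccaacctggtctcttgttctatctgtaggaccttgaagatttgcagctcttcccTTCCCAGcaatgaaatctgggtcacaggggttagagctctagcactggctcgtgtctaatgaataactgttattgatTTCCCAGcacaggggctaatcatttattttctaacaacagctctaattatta
The motifs, searched on both strands, were TTGCNNAA for C/EBP, GGGNNNNNCC for NF-kB, TTCNNNGAA for STAT and CTGGGAA for the core of the interleukin 6 response element. The capitals in Saa1 and Saa2 are a C/EBP match and, nearer the start, an NF-kB match, and those in Lcn2 are a C/EBP match followed by an NF-kB match on the other strand. Orm2 and Orm3 hold a C/EBP match each, which is palindromic in Orm2. Apcs holds a STAT match followed by 2 matches to the interleukin 6 core, with no C/EBP match in this window. The aligned windows of Saa1 and Saa2 were 94.8% identical and those of Orm2 and Orm3 85.9% identical. Of the 8 genes whose promoter is in the RefSeq table, which are all but Orm1 and Hp, 7 held the C/EBP word, against 9.56% of all 32851 promoters of this length. The NF-kB word was in 4 of the 8, against 45.8% of all promoters, the STAT word in 1 against 7.02%, and the interleukin 6 core in 1 against 9.1%. The genes with a C/EBP match include both similar pairs, which are not independent, and Saa4, whose product is constitutive. Saa4, not shown here, also held an NF-kB match. A match is a description of the letters and not a binding site.

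Depth differed between the experiments, from 8963187 to 15196537 counts per library in the diet experiment, 2661699 to 6364414 in the toxin experiment and 2450358 to 6914274 in the surgery experiment. Levels below are in CPM, counts scaled within each experiment to normalized library totals, and levels of different experiments are set side by side as descriptions only. The summed level of 8 hepatocyte marker genes, Alb among them, was between 57018 and 160164 CPM in every liver. Bmp8b, the targeted gene, was not lower in livers labelled knockout: on Western diet it averaged 1.53 ± 0.523 CPM in labelled knockout and 1.07 ± 0.491 CPM in wild-type livers (SD, n = 7 each), after CCl4 1.18 ± 1.04 CPM (n = 6) and 0.464 ± 0.629 CPM (n = 4), and 3 days after hepatectomy 2.12 ± 0.703 CPM (n = 4) and 0.848 ± 0.407 CPM (n = 5). In the 6 olive oil livers it had a count of 0 throughout. The log2 differences were 0.385, 0.773 and 0.968 (exact two-sided permutation p = 0.135, 0.214 and 0.0397). The labels do not give the position of the deletion, so gene-level counts do not check the allele, and the livers are called by their label throughout. Fewer cells of a type and less RNA per cell cannot be told apart in these bulk samples.

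Per length, Hp was the most abundant of the 10 genes in all 9 groups and Orm1 the second, by median CPM per kb of exon. The length used is that of the exons of all annotated transcripts together. It was 2478 bases in Saa1 and 2518 in Saa2, nearly the whole gene span, against 775 in Orm1, which has 1 transcript. Levels per kb are lowered where the RNA present is shorter than this length, so ranks between genes depend on it. In wild-type livers at 3 days after hepatectomy, Saa2 (1942 CPM per kb) and Saa1 (1701 CPM per kb) followed Hp (4471) and Orm1 (2569), ahead of Saa4 (239). On low-fat diet the median was 1233 CPM per kb for Hp, 619 for Orm1, 112 for Saa4 and 73.1 for Apcs, while the inducible genes Orm2, Saa1, Saa2, Orm3, Lcn2 and Saa3 were between 1.12 and 10.9 CPM per kb. Saa4, the constitutive form, ranked 8 of 10 at day 3, against 5 of 10 at day 0, and 3 of 10 on low-fat diet. Together the 10 genes took a median of 2.163% of all counts in wild-type livers at 3 days after hepatectomy, against 0.8622% (range 0.4327% to 2.163%) at day 0. On Western diet it was 0.4543% in labelled knockout and 0.5996% in wild-type livers, against 0.2575% on low-fat diet.

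**Figure D1:**
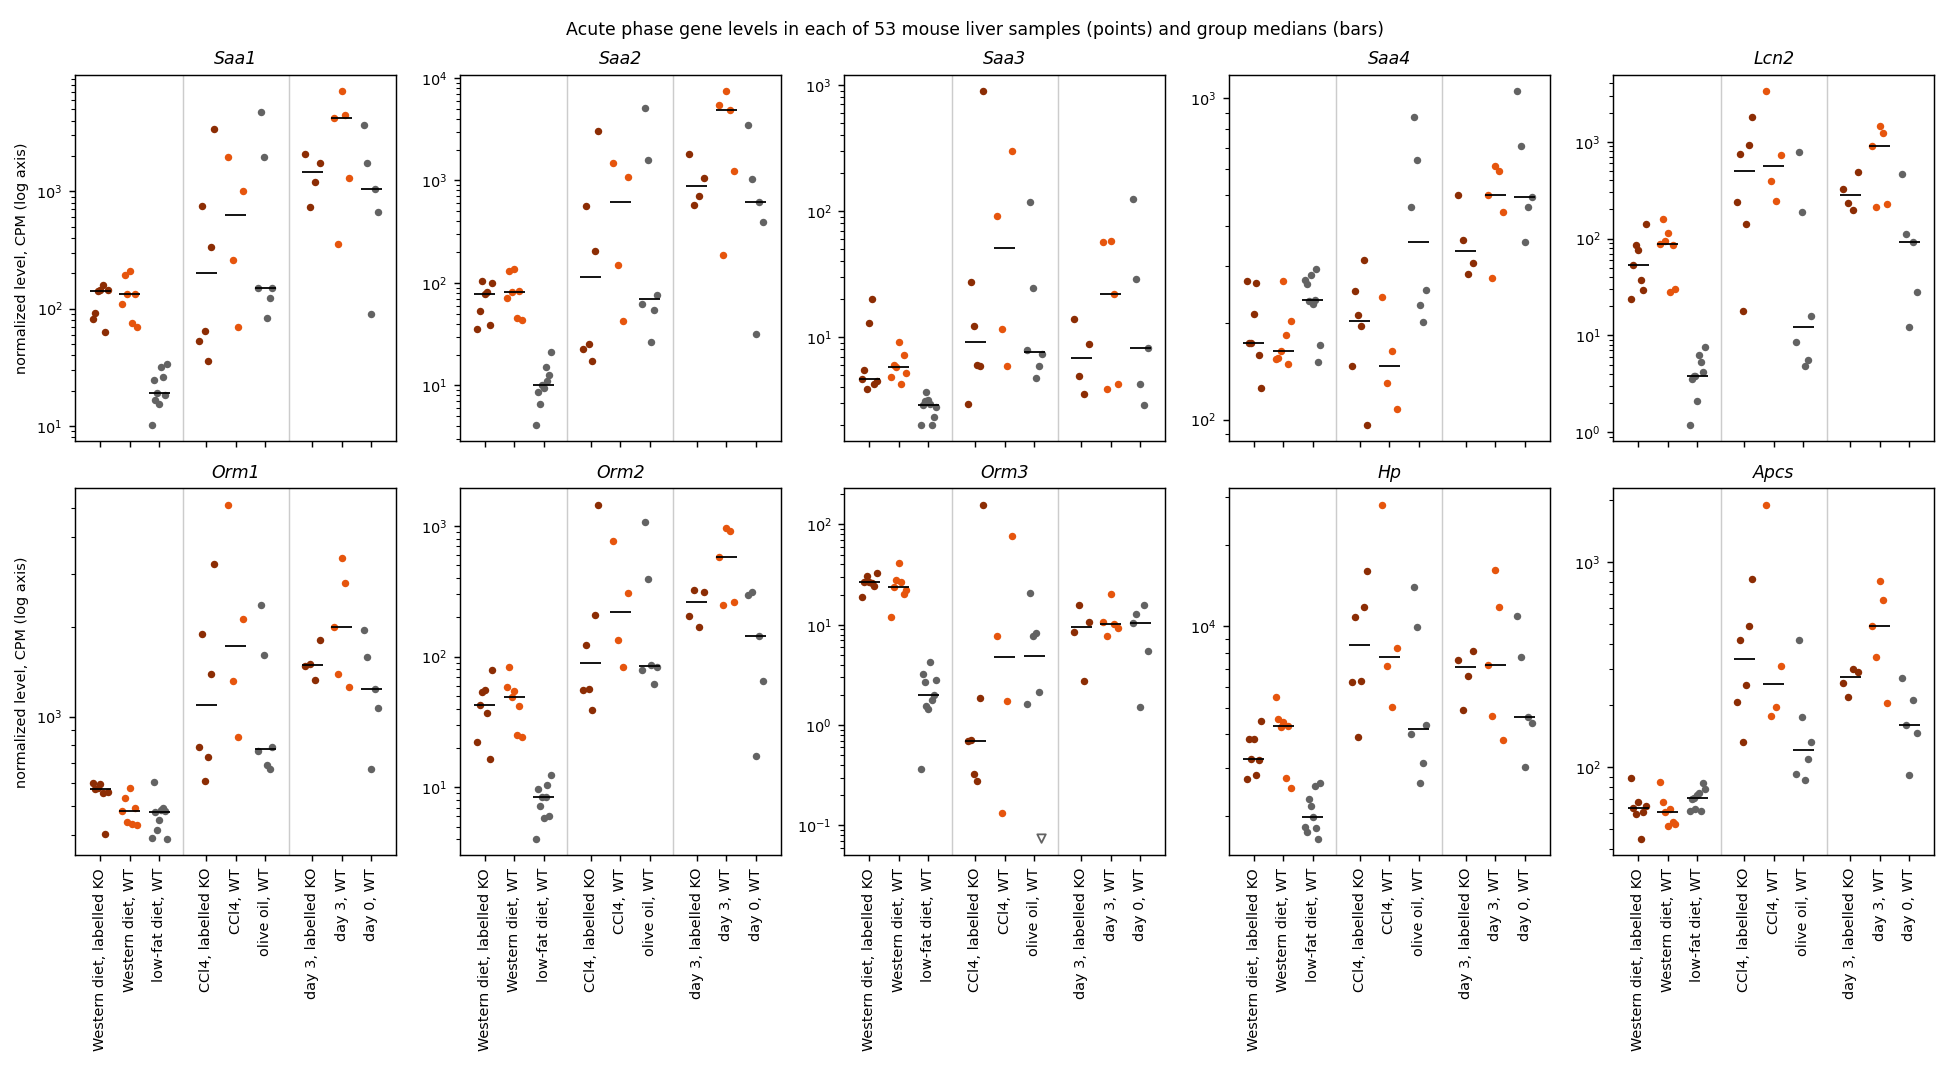
Level of each of the 10 genes in every liver, in normalized CPM on a log axis, for labelled knockout and wild-type livers after each challenge and for the controls of each experiment. Each point is a liver, bars are medians and the open triangle is a count of 0 (Orm3 in olive oil mouse 30); the diet groups are tight and mostly apart, while single livers after CCl4, after olive oil and around hepatectomy stand far above the others.

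Western diet feeding was accompanied by higher levels of 7 of the 10 genes, in labelled knockout and in wild-type livers. Lcn2 rose most, 15.1-fold in labelled knockout and 20.1-fold in wild-type livers over low-fat livers, and Orm3, Saa2, Saa1 and Orm2 rose 5.41- to 11.8-fold. Saa3 and Hp rose 1.66- to 2.88-fold, and Saa4, Orm1 and Apcs did not pass the test. The test is edgeR's quasi-likelihood test, and calls were made where p, adjusted over the whole gene table by the Benjamini-Hochberg method, was below 0.05. In labelled knockout livers 7 of 10 were called higher, beside 15.1% of all tested genes higher and 10.2% lower. Wild-type livers had 7 of 10 called higher as well, beside 20.4% of all tested genes higher and 17% lower. Both comparisons use the same 9 low-fat livers and are not independent.

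Among the serum amyloid genes, Saa1 had between 63.7 and 159 CPM (median 141) in labelled knockout livers on Western diet, between 69.9 and 209 CPM (median 133) in wild-type livers fed the same diet and between 10.2 and 33.9 CPM (median 19.0) on low-fat diet. Both Western diet groups lay above every low-fat liver. The log2 fold change of Saa1 over low-fat diet was 2.44 ± 0.25 (SE, adjusted p = 1.12e-06, edgeR) in labelled knockout and 2.60 ± 0.25 (adjusted p = 2.43e-07, edgeR) in wild-type livers. Its neighbour Saa2 ranged from 35.9 to 104 CPM in labelled knockout livers and from 43.6 to 136 CPM in wild-type livers on Western diet, against 4.14 to 21.2 CPM on low-fat diet. With the counts of these near-identical genes summed, the log2 fold change was 2.52 in labelled knockout and 2.72 in wild-type livers. Saa3 stayed low, with 3.90 to 20.0 CPM in labelled knockout, 4.26 to 9.24 CPM in wild-type and 2.03 to 3.65 CPM in low-fat livers. Both Western diet groups of Saa3 lay above every low-fat liver, and its log2 fold change over low-fat diet was 1.53 ± 0.29 (adjusted p = 0.000768, edgeR) in labelled knockout and 1.13 ± 0.30 (adjusted p = 0.00405, edgeR) in wild-type livers. Saa4, whose product is constitutive, had median levels of 173, 163 and 235 CPM in labelled knockout, wild-type and low-fat livers, and its estimates of -0.26 and -0.38 against low-fat diet did not pass the test (adjusted p = 0.243 and 0.069, edgeR). In wild-type livers that call depended on single libraries: without wild-type mouse 23 the estimate was -0.50 (adjusted p = 0.0168), without low-fat mouse 26 it was -0.44 (0.0274) and without low-fat mouse 27 it was -0.43 (0.0403).

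Lcn2 had 23.6 to 142 CPM (median 52.8) in labelled knockout and 28.3 to 158 CPM (median 87.6) in wild-type livers on Western diet. On low-fat diet it was nearly silent, at 1.20 to 7.68 CPM with a median of 3.86. Every Western diet liver was above every low-fat liver, with log2 fold changes of 3.92 ± 0.41 (adjusted p = 1.12e-06, edgeR) in labelled knockout and 4.33 ± 0.41 (adjusted p = 2.03e-07, edgeR) in wild-type livers. In the same livers the summed level of 12 neutrophil marker genes was 5.63 to 19.2 CPM in labelled knockout, 6.69 to 20.9 CPM in wild-type and 4.50 to 9.28 CPM in low-fat livers, with Ly6g at 0 in every library. Of the 4 of these markers that passed the filter on low counts, 2 were called higher in labelled knockout and 3 in wild-type livers on Western diet. Lcn2 alone was above the whole neutrophil marker sum in each of the 14 Western diet livers, and the part of neutrophil RNA in its level was not tested.

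The orosomucoid genes divided by paralog. Orm1, the major form, had median levels of 572, 482 and 480 CPM in labelled knockout, wild-type and low-fat livers, and its log2 fold changes of 0.24 and 0.062 were not called (adjusted p = 0.0577 and 0.638, edgeR). The 0.24 of labelled knockout livers was called without mouse 33 of that group (0.30, adjusted p = 0.0137) and without low-fat mouse 12 (0.29, adjusted p = 0.0211). Orm2 had 16.4 to 79.0 CPM in labelled knockout and 24.3 to 83.1 CPM in wild-type livers on Western diet, against 4.05 to 12.4 CPM on low-fat diet, a log2 fold change of 2.44 ± 0.29 (adjusted p = 5.34e-06, edgeR) and 2.58 ± 0.29 (adjusted p = 1.99e-06, edgeR). Orm3 had 19.0 to 32.99 CPM in labelled knockout and 12.0 to 41.1 CPM in wild-type livers, against 0.368 to 4.23 CPM on low-fat diet. Its log2 fold changes, 3.56 ± 0.26 in labelled knockout (adjusted p = 1.08e-09, edgeR) and 3.45 ± 0.25 in wild-type livers (adjusted p = 3.02e-09, edgeR), ranked 3 and 2 by p among the 13005 genes tested in these comparisons. Orm2 and Orm3 together made up 6.41% to 16.7% of orosomucoid counts in labelled knockout and 9.72% to 16.7% in wild-type livers on Western diet, against 1.11% to 3.75% on low-fat diet. The ranges of that share did not overlap with low-fat diet. Because Orm1 dominates the family, the summed counts of the 3 genes had a log2 fold change of 0.38 (adjusted p = 0.00592, edgeR) in labelled knockout and 0.23 (adjusted p = 0.0653, edgeR) in wild-type livers.

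Hp, already the most abundant, had 2752 to 4495 CPM in labelled knockout and 2539 to 5486 CPM in wild-type livers on Western diet, against 1654 to 2655 CPM on low-fat diet. The log2 fold change was 0.73 ± 0.14 in labelled knockout (adjusted p = 0.000887, edgeR) and 0.96 ± 0.14 in wild-type livers (adjusted p = 2.75e-05, edgeR), and only the wild-type range overlapped the low-fat range. Apcs stayed near its low-fat level, with medians of 63.2, 60.8 and 71.0 CPM in labelled knockout, wild-type and low-fat livers. Its log2 fold changes were -0.14 and -0.19 (adjusted p = 0.381 and 0.186, edgeR), with 95% intervals from -0.37 to 0.088 and from -0.42 to 0.039. Without wild-type mouse 5 the second was -0.28 with an adjusted p of 0.0412. Within livers sharing the i5 index D501, 7 genes were called in each comparison, and within i5 index D502 the numbers were 5 in labelled knockout and 8 in wild-type livers. Within index D502 Saa3 (0.71, adjusted p = 0.161) and Hp (0.84, adjusted p = 0.069) were no longer called in labelled knockout livers while Apcs (-0.43, adjusted p = 0.0173) was called in wild-type livers, and within index D501 Saa3 (0.92, adjusted p = 0.174) was not called and Saa4 (-0.75, adjusted p = 0.00355) was called in wild-type livers. The median log2 fold change of the 10 genes was 1.98 in labelled knockout and 1.86 in wild-type livers, beside -0.010 and -0.023 for all tested genes.

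**Figure D2:**
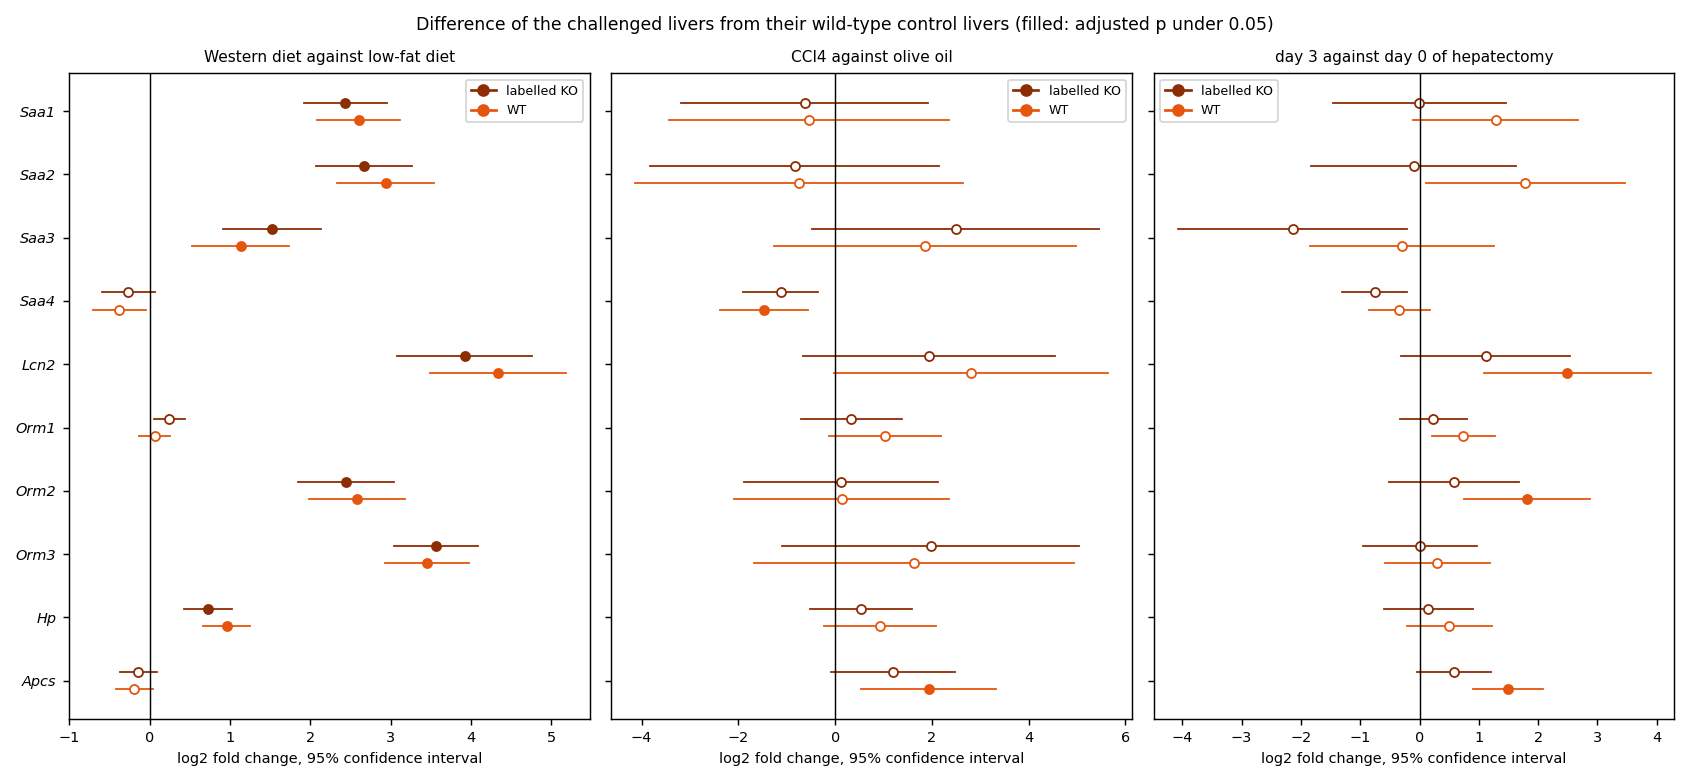
Log2 fold change of each of the 10 genes over the control of its own experiment, with 95% intervals from edgeR, for labelled knockout and wild-type livers after Western diet, CCl4 and hepatectomy; filled symbols have an adjusted p under 0.05. The intervals are narrow after Western diet, where 7 genes are filled in each genotype label, and span more than 5 log2 units for Saa1, Saa2, Saa3, Orm3 and Lcn2 after CCl4.

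The rest of the acute phase programme did not move as one on Western diet. Of 19 other positive acute phase genes, 7 rose and 5 fell in labelled knockout livers and 9 rose and 7 fell in wild-type livers, with median log2 fold changes of 0.12 and 0.11. Il1rn, the interleukin 1 receptor antagonist, rose by 2.06 in labelled knockout and 2.46 in wild-type livers, Cd14, a lipopolysaccharide co-receptor, by 2.18 and 2.28, and Mt2, a metallothionein, by 1.75 and 2.41 on the log2 scale. Fgb, the fibrinogen beta chain, fell, with values of -0.59 and -0.76. Of 10 negative acute phase genes none rose, and 5 fell in labelled knockout and 7 in wild-type livers: albumin (Alb) changed by -0.58 and -0.62 and the fetuin gene Ahsg by -0.48 and -0.49. Among 11 tested cytokines and receptors, 5 rose and 3 fell in labelled knockout livers, and 5 rose and 2 fell in wild-type livers. Osmr, the oncostatin M receptor, was among those that rose (1.43 in labelled knockout and 1.44 in wild-type livers). Lifr (-1.08 and -1.37) and Il1rap (-0.62 and -0.94), subunits of the leukaemia inhibitory factor and interleukin 1 receptors, fell. Of 16 signalling and transcription genes, 2 rose and 1 fell in labelled knockout livers and 3 rose in wild-type livers. Both groups included Nfkb2 (0.75 and 1.09) and Nfkbiz (0.46 and 0.44), members of the NF-kB and inhibitor families. Of 9 tested receptors and partners of the encoded proteins, 4 rose in each group and 1 and 2 fell. Tlr2, for which serum amyloid A is a reported ligand, changed by 1.46 and 1.84, and Lrp2, the megalin receptor that takes up lipocalin 2, by -2.29 and -2.37.

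Marker genes of cell types also moved with diet in the same livers. Macrophage markers summed to 227 to 981 CPM in labelled knockout and 382 to 805 CPM in wild-type livers on Western diet, against 145 to 397 CPM on low-fat diet, with 7 and 8 of 10 called higher. Cholangiocyte markers, of which 3 and 4 of 6 were called higher, summed to 44.2 to 380 CPM and 81.0 to 449 CPM, against 30.8 to 116 CPM. Hepatocyte markers summed to 65959 to 91193 CPM and 59737 to 88500 CPM, against 91102 to 124421 CPM, and 5 and 6 of 8 were called lower. Alb, Ttr and Apoa1 are in this list and also among the negative acute phase genes above, so the falls of both lists are not separate results. The part of these shifts in the acute phase levels was not tested.

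After CCl4 the inducible genes differed widely between livers of the same group, and few calls were made. The highest level of Saa2 was 175-fold the lowest among labelled knockout livers, 34.5-fold among wild-type livers and 191-fold among olive oil livers. In labelled knockout livers after CCl4 edgeR called 0 of the 10, beside 5.91% of all genes higher and 3.4% lower; 1 gene (Saa4) had an unadjusted p under 0.05, DESeq2 called 1 and limma voom 0. In wild-type livers Apcs was called higher and Saa4 lower than after olive oil, 1 and 1 of 10, beside 11.1% of all tested genes called higher and 8.87% lower. Both comparisons share the 6 olive oil livers.

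Among olive oil livers, mouse 26 had the highest level of all 10 genes, and mouse 27 was second for 9 of them. Saa2 had 5106 CPM in mouse 26 and 1600 CPM in mouse 27, against 26.8 to 75.7 CPM in the other 4 olive oil livers. Among wild-type livers after CCl4, mouse 4 was highest for 8 genes. Saa2 had 1467 CPM there and 1092 CPM in mouse 34, against 149 CPM in mouse 5 and 42.5 CPM in mouse 7. Among labelled knockout livers, mouse 35 was highest for 9 genes, all but Saa4. Saa2 had 3038 CPM in mouse 35 and 568.3 CPM in mouse 8, 204 CPM in mouse 22, 25.3 CPM in mouse 9, 22.9 CPM in mouse 2 and 17.4 CPM in mouse 12. The 3 groups overlapped over most of their range, and the log2 fold changes of Saa2 over olive oil, -0.84 ± 1.41 in labelled knockout and -0.75 ± 1.60 in wild-type livers, were smaller than their standard errors.

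Lcn2 was the gene with the widest contrast to most controls. It had 1798, 923, 753, 241, 140 and 17.8 CPM in labelled knockout mice 35, 22, 8, 2, 12 and 9 after CCl4. In wild-type mice 4, 34, 5 and 7 it had 3327, 725, 393 and 244 CPM, and after olive oil it had 781 and 190 CPM in mice 26 and 27 and 4.78 to 15.8 CPM in the other 4. All 4 wild-type CCl4 livers were above 5 of the 6 olive oil livers and none but mouse 4 was above mouse 26. The log2 fold change was 1.95 ± 1.23 in labelled knockout livers (adjusted p = 0.36, edgeR) and 2.81 ± 1.34 in wild-type livers (adjusted p = 0.15, edgeR). Without olive oil mouse 26 the wild-type value was 4.71 (adjusted p = 0.0268), and without CCl4 mouse 4 it was 1.44. Limma voom called Lcn2 in wild-type livers with all livers kept (4.21, adjusted p = 0.0378).

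The i5 index of the library, which differs partly between groups, also moved these values. Under i5 index D505, Lcn2 had 1798 CPM in labelled knockout mouse 35 and 725 CPM in wild-type mouse 34 after CCl4, against 4.78, 5.59 and 15.8 CPM in olive oil mice 28, 29 and 30. Under index D504 it had 923 CPM in labelled knockout mouse 22, against 8.48, 781 and 190 CPM in olive oil mice 24, 26 and 27, and every library with index D503 is from a CCl4 liver. With the index in the model, Lcn2 was called in labelled knockout (5.66, adjusted p = 0.029, edgeR) and in wild-type livers (7.31, adjusted p = 0.0137, edgeR). In the same fit Saa3 was called in wild-type livers (5.98, adjusted p = 0.038) and Saa4 in labelled knockout livers (-1.09, adjusted p = 0.00795). The estimates of Saa1 and Saa2 turned from below to above 0, to 2.86 and 3.87 in labelled knockout and 4.09 and 5.16 in wild-type livers, without being called. Those fits rest on the few livers of indexes D504 and D505, and the labels do not say that an index marks a preparation or a run.

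Apcs had 830, 487, 419, 253, 207 and 133 CPM in labelled knockout mice 35, 22, 8, 12, 2 and 9 after CCl4. It had 1893 CPM in wild-type mouse 4 and 312, 197 and 177 CPM in wild-type mice 34, 7 and 5, and after olive oil 418 CPM in mouse 26 and 86.3 to 175 CPM in the others. All 10 CCl4 values exceeded the olive oil median of 121 CPM, though the groups overlapped through mouse 26. The log2 fold change was 1.20 ± 0.61 in labelled knockout livers (adjusted p = 0.242, edgeR) and 1.93 ± 0.66 in wild-type livers (adjusted p = 0.0497, edgeR). The wild-type call rested on mouse 4, without which it was 0.43 (adjusted p = 0.62), and it was also lost without olive oil mouse 24, 27, 28, 29 or 30, at 1.80 to 1.94 with adjusted p of 0.0821 to 0.0979. Limma voom did not call Apcs either (1.02, adjusted p = 0.186), nor did edgeR without the filter on low counts (1.925, adjusted p = 0.0533). The median of Saa4 was 203 CPM in labelled knockout and 146 CPM in wild-type livers after CCl4, against 355 CPM after olive oil. Its log2 fold changes were -1.13 ± 0.37 (adjusted p = 0.0664, edgeR) and -1.46 ± 0.43 (adjusted p = 0.0252, edgeR). The wild-type call of Saa4 was lost without olive oil mouse 26 (-1.15, adjusted p = 0.0545) or 27 (-1.33, 0.0522) and without CCl4 mouse 5 (-1.38, 0.0667), 7 (-1.48, 0.0513) or 34 (-1.31, 0.0673), with no change of direction. The labelled knockout value passed the threshold without mouse 22 of that group (-1.30, adjusted p = 0.0497) or without olive oil mouse 29 (-1.28, 0.0421).

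The remaining genes were not called after CCl4. Orm3 had 156 CPM in labelled knockout mouse 35 against 0.276 to 1.87 CPM in the other 5 livers of that group, and 76.0 CPM in wild-type mouse 34 against 0.133 to 7.76 CPM in the other 3, while olive oil livers had 20.9 CPM in mouse 26 and 0 to 8.37 CPM in the others. A count of 0, in olive oil mouse 30, allows up to 0.755 CPM by counting error alone. Saa3 had 888 CPM in labelled knockout mouse 35 and 299 CPM in wild-type mouse 34, against at most 27.4 and 90.9 CPM in the rest of their groups, and 4.78 to 118 CPM after olive oil. Orm1 had medians of 1090, 1720 and 777 CPM, and Hp of 8537, 7748 and 4180 CPM, in labelled knockout, wild-type and olive oil livers. Their log2 fold changes were 0.33 and 1.04 for Orm1 and 0.53 and 0.93 for Hp in labelled knockout and wild-type livers. The 10 genes had a median log2 fold change of 0.43 in labelled knockout and 0.98 in wild-type livers, beside 0.027 and 0.054 for all tested genes.

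Of the 19 other positive acute phase genes edgeR called 0 in labelled knockout livers after CCl4, with 6 at an unadjusted p under 0.05, and in wild-type livers 4 were called higher and 1 lower. In wild-type livers Steap4, a metalloreductase (1.53), Il1rn (3.82) and Serpina3n, a serine protease inhibitor (2.46), rose, and Crp, a pentraxin that responds only weakly in the mouse, fell (-0.88). Of 10 negative acute phase genes, 1 rose and 2 fell in wild-type livers: Ahsg (0.74), Igfals (-2.05), the acid-labile subunit that carries insulin-like growth factors, and Serpina6 (-2.99), the corticosteroid-binding globulin. Of 10 tested cytokines and receptors, 3 rose and 2 fell in wild-type livers, and of 16 signalling and transcription genes 1 rose and 1 fell. In labelled knockout livers 0 of either list were called, with 1 and 2 at an unadjusted p under 0.05. In wild-type livers Osmr was among those that rose (2.90), and Lifr (-1.50) and Il1rap (-1.23) fell. Cebpa, a C/EBP factor of mature hepatocytes, fell there by 1.31 on the log2 scale. Neutrophil markers summed to 6.98 to 106 CPM in labelled knockout livers, with the highest value in mouse 35, and to 9.06 to 248 CPM in wild-type livers, with the highest in mouse 34, against 1.92 to 30.0 CPM after olive oil, where mouse 26 was highest. Of the 5 tested neutrophil markers, Mmp8 (4.60) and S100a9 (3.30) were called higher in wild-type livers. Macrophage markers summed to 326 to 1114 CPM, highest in labelled knockout mouse 35, and to 329 to 846 CPM, highest in wild-type mouse 34, against 140 to 416 CPM, highest in olive oil mouse 26, and 4 of 10 were called higher in each comparison. Olive oil mouse 26 and labelled knockout mouse 35, highest for both marker sums, were also the highest of their groups for 10 and 9 of the acute phase genes. Wild-type mouse 34 was the highest of its group for Saa3 and Orm3 only. On the log2 scale it was near its group mean for Lcn2 (0.064) and below that mean for Hp (-0.20), Apcs (-0.28) and Saa4 (-0.50). The part of neutrophil and macrophage RNA in the acute phase levels was not tested.

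At 3 days after hepatectomy, Lcn2, Orm2 and Apcs were higher in wild-type livers than in resected day 0 liver. In labelled knockout livers at day 3, edgeR called 0 of the 10 against the 5 day 0 livers, beside 7.23% of all genes higher and 5% lower; Saa3 and Saa4 had an unadjusted p under 0.05, and DESeq2 and limma voom called 0. In wild-type livers 3 of 10 were called higher and 0 lower against the same day 0 livers, beside 9.87% of all tested genes called higher and 7.5% lower. All day 3 libraries carry i5 index D507 and all day 0 libraries D505 or D506, so day and index cannot be told apart.

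Lcn2 had 901, 212, 1464, 1239 and 229 CPM in wild-type mice 12, 13, 14, 15 and 16 at day 3. At day 0 it had 461, 112, 12.2, 91.7 and 27.8 CPM in the samples numbered 12, 13, 14, 15 and 16. Every day 3 liver was above 4 of the 5 day 0 samples, and only day 0 sample 12 overlapped. The log2 fold change was 2.49 ± 0.67 (adjusted p = 0.0134, edgeR) and reached 3.71 without day 0 sample 12. In labelled knockout mice 17, 18, 19 and 20 Lcn2 had 328, 233, 197 and 489 CPM, a log2 fold change of 1.12 ± 0.68 over day 0 (adjusted p = 0.338, edgeR). Without day 0 sample 12 that value was 2.34 (adjusted p = 0.0141).

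Orm2 had 576, 249, 959, 906 and 263 CPM in wild-type mice 12 to 16 at day 3, against 297, 313, 17.3, 144 and 64.7 CPM at day 0. The 3 highest values were all at day 3, and the log2 fold change was 1.81 ± 0.51 (adjusted p = 0.0171, edgeR). Apcs had 486, 344, 811, 652 and 205 CPM at day 3 against 273, 160, 92.1, 213 and 147 CPM at day 0. Its log2 fold change of 1.49 ± 0.29 (adjusted p = 0.000959, edgeR) had the lowest p of the 10 genes, and 4 of the 5 day 3 livers were above all day 0 samples. In labelled knockout livers at day 3 Orm2 had 205, 322, 169 and 314 CPM and Apcs 257, 220, 300 and 292 CPM, with log2 fold changes of 0.58 ± 0.53 and 0.59 ± 0.30 (adjusted p = 0.548 and 0.235, edgeR). The calls of Lcn2, Orm2 and Apcs in wild-type livers held when any 1 of the 10 livers was left out.

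Saa1 and Saa2 each had their own highest level of the series in a day 3 liver of this experiment, without passing the test. Saa1 had 4214, 357, 7146, 4510 and 1307 CPM in wild-type mice 12 to 16 at day 3, against 3678, 1730, 89.4, 1041 and 662 CPM at day 0, a log2 fold change of 1.28 ± 0.67 (adjusted p = 0.211, edgeR). Saa2 had 187 to 7423 CPM (median 4890) at day 3 against 31.9 to 3491 CPM (median 620) at day 0, and its log2 fold change of 1.78 ± 0.80 (adjusted p = 0.143, edgeR) became 2.89 (adjusted p = 0.0175) without day 0 sample 12. Day 0 sample 12 was already high for 8 of the 10 genes and sample 14 was lowest for 9, so the resected livers differed widely among themselves. Saa3 (3.86 to 58.3 CPM at day 3, 2.88 to 124 CPM at day 0) and Saa4 (275 to 614 and 356 to 1048 CPM) had estimates of -0.30 and -0.34. Orm1 had a median of 1991 CPM at day 3 against 1235 CPM at day 0, at the edge of the threshold (0.74, adjusted p = 0.0512, edgeR). Orm1 was called without day 0 sample 12 (0.93, adjusted p = 0.0166) or without day 3 mouse 13 (0.86, 0.0266) or 16 (0.88, 0.021), and with the 3 orosomucoid genes summed (0.91, 0.0297). Hp (median 7181 against 4658 CPM) and Orm3 (10.2 against 10.4 CPM) had estimates of 0.50 and 0.30 and were not called. In labelled knockout livers Saa4 had an estimate of -0.76 (adjusted p = 0.0682, edgeR), which passed the threshold without mouse 17 (-0.95, 0.0289) or without day 0 sample 14 (-0.90, 0.0285). The median log2 fold change of the 10 genes over day 0 was 0.077 in labelled knockout and 1.01 in wild-type livers, beside 0.0019 and -0.0047 for all tested genes.

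Among the other acute phase genes at day 3, 0 of 18 rose and 2 fell in labelled knockout livers, and 7 rose and 2 fell in wild-type livers. Mt2 (4.58), C3, the central complement component (0.88), and Steap4 (0.71) rose in wild-type livers, and Hamp, the iron hormone hepcidin, fell in labelled knockout (-1.45) and wild-type livers (-2.05). The negative acute phase genes did not fall together: of 10, 2 rose and 1 fell in labelled knockout livers and 3 rose and 3 fell in wild-type livers. Alb rose by 0.73 and 0.76 and Ahsg by 0.32 and 0.42, while Igfals fell, at -0.62 and -0.53, on the log2 scale. Of 9 tested cytokines and receptors, 0 rose and 3 fell in labelled knockout livers, and 1 rose and 3 fell in wild-type livers. Of 15 signalling and transcription genes, 0 rose and 1 fell in labelled knockout livers, and 1 rose and 1 fell in wild-type livers. Osmr rose in wild-type livers (1.58), Lifr fell in labelled knockout (-1.47) and wild-type livers (-1.58), and Cebpa fell in both (-0.65 each). Of the 2 tested neutrophil markers, S100a9 was called higher in wild-type livers (2.36), and the neutrophil sums were 3.16 to 7.74 CPM in labelled knockout, 4.67 to 20.0 CPM in wild-type and 1.18 to 4.72 CPM in day 0 livers. The macrophage sums overlapped, at 140 to 400 CPM, 199 to 394 CPM and 186 to 276 CPM. The highest neutrophil sum at day 3 was in wild-type mouse 14, which also had the highest level of each of the 10 acute phase genes in its group, and the part of those cells was not tested.

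Labelled knockout and wild-type livers given the same challenge were compared directly. EdgeR called 0 of the 10 genes on Western diet, beside 0.0154% of all genes, 0 after CCl4, beside 0.00857%, and 0 after hepatectomy, beside 0.154%. At an unadjusted p under 0.05 there were 0, 0 and 3 of the 10, and DESeq2 and limma voom called 0 in each. On Western diet the log2 differences, labelled knockout minus wild-type, ran from -0.41 (Lcn2) to 0.39 (Saa3). The 95% intervals there were narrowest for Orm1 (-0.023 to 0.39) and widest for Lcn2 (-1.17 to 0.35), and none of the 10 reached below -1.17 or above 1.005. After CCl4 the intervals were wide, from -2.94 to 2.75 for Saa1 and from -3.63 to 1.91 for Lcn2, and differences inside them were not detectable with this spread between livers. At 3 days after hepatectomy all 10 estimates were below 0, with a median of -1.06 beside 0.0027 for all genes. These genes tended to be high or low in the same livers, so the 10 estimates are not independent. Wild-type mouse 14 was the highest of its group for all 10. All but Orm3 varied more among the wild-type livers, as Lcn2 did (SD of log2 CPM 1.35 against 0.58), and Orm3 varied less (0.51 against 0.99). The 3 genes with an unadjusted p under 0.05 were Apcs (-0.90 ± 0.30, adjusted p = 0.343, edgeR), Orm2 (-1.23 ± 0.54, adjusted p = 0.499) and Saa2 (-1.88 ± 0.88, adjusted p = 0.538). Their levels overlapped between labels. For Apcs the overlap came through wild-type mouse 16, since labelled knockout livers had 220 to 300 CPM, against 205 CPM in that mouse and 344 to 811 CPM in the other 4 wild-type livers.

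**Figure D3:**
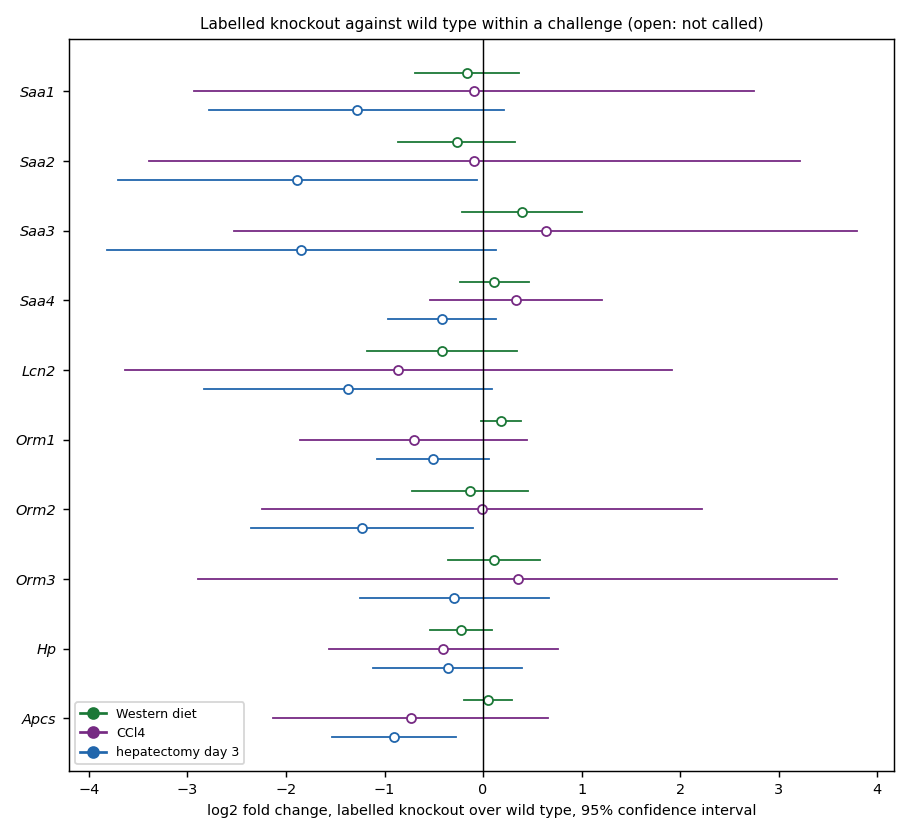
Log2 difference between labelled knockout and wild-type livers given the same challenge, with 95% intervals from edgeR, for each of the 10 genes after Western diet, CCl4 and hepatectomy; open symbols have an adjusted p of 0.05 or more. Every symbol is open, the Western diet estimates lie within 0.41 of 0, and the 10 hepatectomy estimates, which are not independent, lie below 0.

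Whether the challenges differed was tested in a fit of all 53 libraries, as the difference between 2 log2 fold changes over each experiment's own control. This fit holds 1 estimate of spread per gene for all 9 groups, so the wide toxin groups also enter the error of diet minus hepatectomy. In the separate fits the SE of Orm3 in wild-type livers was 0.25 for diet and 0.42 for hepatectomy. A missing call in that difference therefore does not show that the responses were alike. For the wild-type response to diet minus that to CCl4, 1 of the 10 genes was called, beside 16.1% of all 12646 genes: Apcs, at -2.10 ± 0.55 (adjusted p = 0.00686, edgeR). Without wild-type CCl4 mouse 4 that difference was -0.62 (adjusted p = 0.389). In the toxin fit alone the SE of the wild-type Apcs response was 0.66, above the 0.55 of this difference. The shared estimate of spread may therefore understate the error of this call. Saa1 (3.16 ± 1.23, adjusted p = 0.0683), Saa2 (3.72 ± 1.46, 0.0716), Orm2 (2.47 ± 0.98, 0.074) and Saa4 (1.10 ± 0.41, 0.0561) had estimates above 0 and were not called by edgeR, while DESeq2 called all 4. Leaving out mouse 4 alone brought Saa1 (4.05, adjusted p = 0.0354), Saa4 (1.35, 0.026) and Orm2 (3.35, 0.0251) past the threshold. Other single livers did so too. Without olive oil mouse 28 or 29 Saa1 was 3.41 and 3.42 (0.0499 and 0.0481). Without olive oil mouse 28, 29 or 30 Saa4 was 1.22 to 1.27 (0.0246 to 0.034), and without olive oil mouse 26 Orm1 was -1.31 (0.0386). Without wild-type CCl4 mouse 34 Orm3 was 4.71 (0.0143). For diet minus hepatectomy 0 of 10 were called, beside 3.53% of all genes, with Orm3 (3.16 ± 1.23, adjusted p = 0.143, edgeR) and Apcs (-1.67 ± 0.55, 0.0757) at an unadjusted p under 0.05, and DESeq2 called 0. For CCl4 minus hepatectomy 0 of 10 were called, beside 6.09% of all genes, with Saa4 (-1.13 ± 0.45, adjusted p = 0.118, edgeR; -1.39 and 0.0497 without day 0 sample 12) alone at an unadjusted p under 0.05, and DESeq2 called 0.

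The effect of the genotype label was compared between challenges in the same fit, with the same shared estimate of spread. EdgeR called 0 of the 10 for diet minus CCl4, beside 0% of all genes, 0 for diet minus hepatectomy, beside 0.0158%, and 0 for CCl4 minus hepatectomy, beside 0.0395%. None of the 10 had an unadjusted p under 0.05 in any of the 3, and DESeq2 called 0 in each. A single library decided a value: the label effect on Orm3, diet minus CCl4, was -0.29 ± 1.13 with all livers and 4.74 (adjusted p = 0.023, edgeR) without labelled knockout mouse 35 after CCl4.

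Within groups, most of the 10 genes varied more than the median gene, and high and low levels tended to occur in the same livers. In day 0 liver the SD of log2 CPM was 2.49 for Saa2, larger than that of 99.98% of tested genes, against a median SD of 0.26 over all genes. After olive oil it was 3.07 for Saa2 and 2.99 for Lcn2, and on low-fat diet 0.69 for Lcn2 and 0.64 for Saa2. Orm1 (0.20), Hp (0.25) and Apcs (0.16) were close to the low-fat median of all genes, 0.23. Measured as deviations from each liver's own group mean, over 53 samples, the 36 pairs of genes without Saa4 had Pearson correlations of 0.454 to 0.992, the highest between Saa1 and Saa2, which share sequence. The 9 pairs with Saa4 had correlations of 0.011 to 0.47. The points of each correlation share library, depth and normalization, and no test was made of them.

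Genes outside the set with the most similar pattern were ranked over 10696 genes by the same measure. The mean of the 10 genes was most like Hpx, hemopexin (Pearson r 0.879, Spearman rho 0.835 over 53 samples), Serpina3n (0.875 and 0.818), Lrg1, a leucine-rich glycoprotein of plasma (0.873 and 0.781), Lbp, the lipopolysaccharide-binding protein (0.871 and 0.862), and Clu, clusterin (0.828 and 0.792). Without the 2 livers farthest from the median, these were 0.848, 0.841, 0.844, 0.843 and 0.778. The likeness came mainly from the toxin and surgery livers: within the diet experiment r was 0.728 for Hpx, 0.43 for Serpina3n, 0.143 for Lrg1, 0.476 for Lbp and 0.533 for Clu, within the toxin experiment 0.864 to 0.942, and within the surgery experiment 0.676 to 0.973. Lcn2 alone was most like Hpx (0.839 and 0.836), Lrg1 (0.837 and 0.77) and Clu (0.804 and 0.753), and Saa3 alone was most like Lbp (0.813 and 0.756), the metallothionein Mt1 (0.784 and 0.624) and Inafm2 (0.764 and 0.525). For Saa3 these values within the diet experiment were 0.0519, -0.0965 and 0.126.

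**Figure D4:**
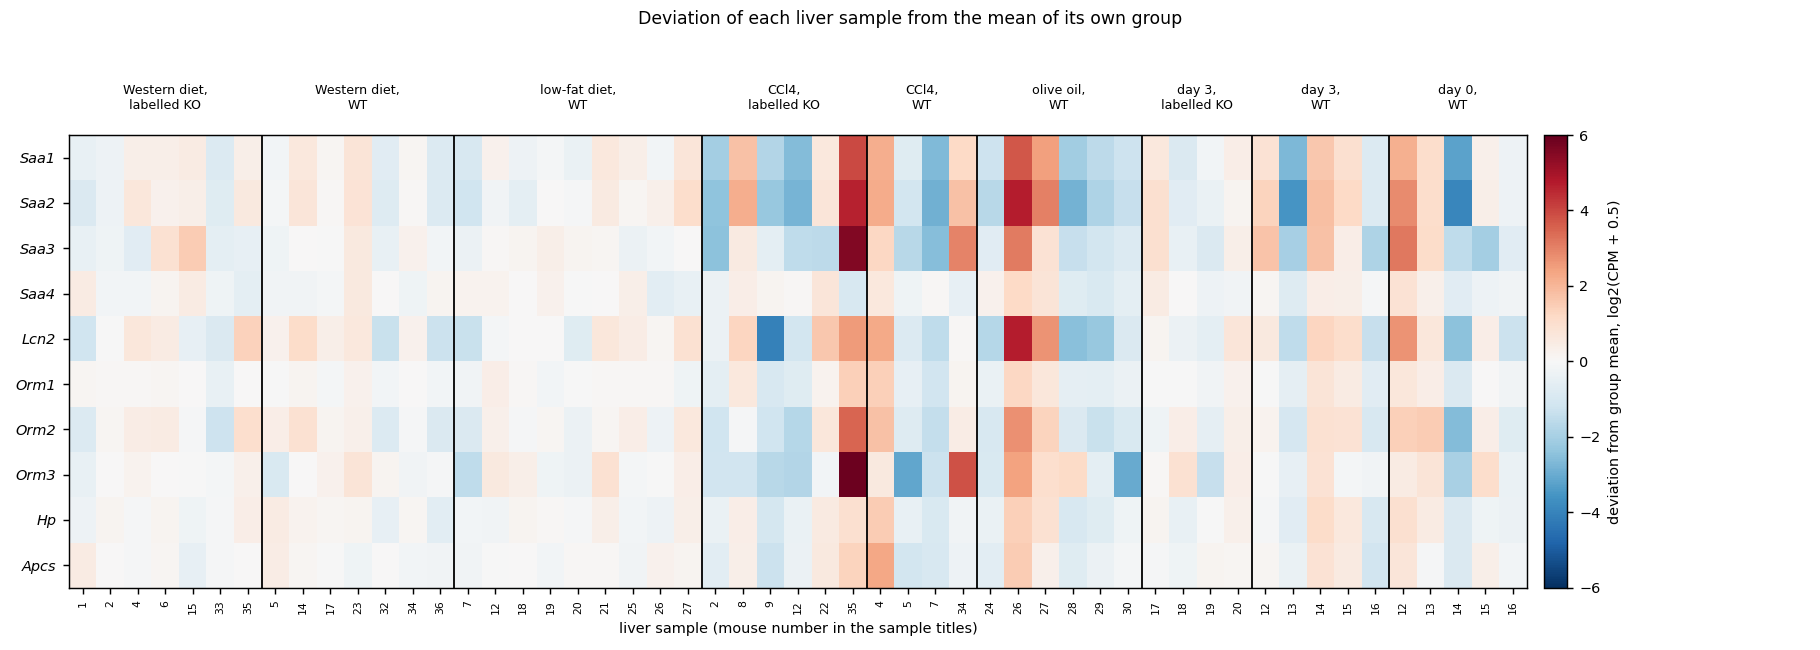
Deviation of log2(CPM + 0.5) from the mean of the liver's own group for the 10 genes (rows) in each of the 53 samples (columns, by group and mouse number). Whole columns share a colour: olive oil mouse 26, labelled knockout mouse 35 and wild-type mouse 4 after CCl4, wild-type mouse 14 at day 3 and day 0 sample 12 are high for most genes. The diet livers and the labelled knockout livers at day 3 deviate least for most genes.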

How the data were processed

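RNA of 53 whole-liver samples was sequenced in 3 experiments. The authors deposited unnormalized counts of reads for each Ensembl gene, and per the submitters' processing notes reads were handled with TopHat2 2.0.11 and HTSeq on GRCm38. The annotation release, the strand setting and the assignment of shared reads are not given in the sources used here, so reads of overlapping antisense genes cannot be told apart. Depth is given in the report, and no pair of replicates agreed within counting error (lowest chi-square per degree of freedom 4.98). EdgeR p-values set the difference between groups against the spread between samples. Each fit shares its estimate of that spread among its groups, although the groups differed in spread.

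The 3 groups of an experiment shared 1 model in edgeR 4.0.16 (R 4.3.3), with TMM normalization, filterByExpr, two-sided quasi-likelihood F-test, Benjamini-Hochberg adjustment over the 13005 (diet), 11663 (toxin) or 11026 (surgery) genes tested, and calls at an adjusted p under 0.05. Differences between challenges came from a joint fit of the 53 libraries over 12646 genes. Errors of log2 fold changes are SE, intervals are 95%, and the floor of a count of 0 is 3 counts, for counting error only. Bmp8b was compared on log2(CPM + 0.5).

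The alternatives were DESeq2 1.42.0, limma voom 3.58.1 with quality weights, RLE size factors, no filter, the i5 index as a covariate or fitted within an index, summed paralog counts, other pseudocounts for Bmp8b, a replicate block and leaving out each library. The script was tested on simulated counts. All 10 genes are named throughout. Of each other list, up to 4 genes with the smallest p could be named, and the text names some of these. The genes most like the set were ranked by correlation of deviations from group means. The members and the lists were chosen with earlier results of these data known, and the lists were partly taken over from that earlier work. Symbols came from a gene name table, positions, exon lengths and 50-base words from the GENCODE annotation and its transcripts, and promoters from RefSeq (GRCm38.p6). Biopython 1.88 aligned the promoters, pandas 2.3.3 under Python 3.11.15 made the tables and matplotlib 3.10.9 the figures. The reported fits use all 53 libraries.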

Additional observations from a re-analysis of the deposited data

Results flagged for a closer look

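In 90 sets of 4 to 9 levels (10 genes in 9 groups), Dixon's 95% critical value was applied to CPM, not to log2 CPM. The extreme level lay farther from the others than that value allows in 20 sets. That value lets through about 1 set in 20 when levels are normally distributed. Levels in CPM are skewed to high values, so the 20 sets cannot be set against that rate. These 20 levels come from 8 livers, so the sets are not independent.

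After CCl4, labelled knockout mouse 35 stood above the other 5 for 5 genes, with 3415 CPM of Saa1, 3038 CPM of Saa2, 888 CPM of Saa3, 1442 CPM of Orm2 and 156 CPM of Orm3. Wild-type mouse 4 stood above the other 3 for 3 genes, with 3327 CPM of Lcn2, 27984 CPM of Hp and 1893 CPM of Apcs, and wild-type mouse 34 for Orm3, with 76.0 CPM. After olive oil, mouse 26 stood above the other 5 for 5 genes, with 5106 CPM of Saa2, 118 CPM of Saa3, 781 CPM of Lcn2, 1063 CPM of Orm2 and 418 CPM of Apcs.

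At 3 days after hepatectomy, wild-type mouse 14 stood apart for Orm3, with 20.4 CPM. At day 0, sample 12 did so for 3 genes, with 3491 CPM of Saa2, 124 CPM of Saa3 and 461 CPM of Lcn2. In the diet experiment both cases concerned Orm1: labelled knockout mouse 33 was the lowest of its group on Western diet with 403 CPM, and mouse 12 the highest on low-fat diet with 602 CPM.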

How the results depend on the processing

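Of 3164 log2 fold changes of the 10 genes under an alternative, 19 lost a call and 52 gained one. A further 169 changed sign while uncalled before and after, and 1 changed sign past the threshold: the label effect on Orm3, diet minus CCl4, was -0.29 with all livers and ranged from -3.12 to 4.74 with single livers left out, the highest without labelled knockout mouse 35 after CCl4. Of the 10 genes, those called in labelled knockout livers after CCl4 numbered 1 by DESeq2 and 2 with the i5 covariate, against 0 by edgeR. In wild-type livers after CCl4 they numbered 4 with the i5 covariate and 1 without the filter on low counts, against 2. The diet minus CCl4 response gave 5 by DESeq2 against 1. Without the filter, the number was 2 in labelled knockout livers at day 3 against day 0 (0 with it), 5 in wild-type livers at day 3 (3 with it) and 1 between labels at day 3 (0 with it). With single livers left out, the numbers ranged over 7 to 8 on Western diet for either label, 0 to 1 in labelled knockout and 0 to 2 in wild-type livers after CCl4, 0 to 1 in labelled knockout and 3 to 5 in wild-type livers at day 3, 1 to 3 for diet minus CCl4, 0 to 1 for CCl4 minus hepatectomy and 0 to 1 for the label effect of diet minus CCl4. The cause of these shifts was not tested.

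Day 0 and day 3 wild-type samples share mouse numbers, but for mice 13 and 14 the titles differ, and deviations of same-numbered samples correlated at no more than 0.0898, with the own number best for 2 of 5. With the replicate block, 3 of the 10 genes were called, as without it, and 1710 genes in all against 1915. The fit with the block left out the labelled knockout livers, so these totals differ in libraries as well as in the block.

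Counts over all genes also moved. After CCl4 in labelled knockout livers, 2569 genes were called with the i5 covariate and 1845 by limma voom, against 1085, and in wild-type livers 3599 with the covariate against 2331. Between labels, DESeq2 called 21, limma voom 2 and the fit within i5 index D503 called 0 after CCl4, against 1, and at day 3 DESeq2 called 63 and the unfiltered fit 182, against 17. On Western diet the within-index fits called 1581 (D501) and 638 (D502) in labelled knockout livers against 3282, 1401 (D502) in wild-type livers against 4869, and 1 (D502) between labels against 2. For diet minus hepatectomy the numbers were 684 by DESeq2 and 295 unfiltered, against 447, for CCl4 minus hepatectomy 513 unfiltered against 770, and for the label effect 15 by DESeq2 (diet minus CCl4) against 0 and 24 (CCl4 minus hepatectomy) against 5. The toxin and surgery libraries are shallower than the diet libraries, and the effect of depth on the 10 genes was not tested.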
